A study of Populus ussuriensis with 18 samples.

Results

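The 246 loci described here had their highest transcript level after cutting at 6 h and varied at least 8-fold, in FPKM + 1, between 0.5 h and 96 h, at the cut base of stem cuttings of Populus ussuriensis, a poplar. They were chosen by their measured levels: the values of all transcripts of a locus were summed, averaged over the 2 libraries of each time point and put on the scale x = log2(FPKM + 1). FPKM scales the reads of a transcript to its length and to the depth of its library. A locus was taken when x was highest at 6 h and its highest and lowest x from 0.5 h to 96 h lay at least 3 apart. Of 36385 loci listed, 4587 were highest at 6 h and 246 of those reached that range, 0.676% of all. The levels from 0.5 h to 96 h made the choice, so they are compared with each other below as a description without a test. Calls against 0 h set a level that the rule used beside one that it did not, and their counts are read as a description too. The 0 h levels and the division of a locus among its transcripts had no part in it.

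The labels name no genotype and no treatment other than cutting, so time is the one labelled difference between samples. Plants aged 2 weeks were raised in vitro at 25 °C on medium with 20 g/L sucrose (16 h light, 8 h dark) and then cut. The lowest 0.5 cm of the stem piece was taken at 0, 0.5, 1, 2, 6, 12, 24, 48 and 96 h, with 2 libraries of total RNA per time, which makes 18. Whether the pair at each time came from separate plants or cultures is not stated in the labels, so a p-value here measures the spread between these libraries alone, which may be technical. No uncut plants of the later times and no time of day are among the labels, so a change with the hour of the day and a response to cutting cannot be told apart.

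Cutting a stem severs its vessels and wounds its cells. In plants generally, wounding is followed within minutes to hours by calcium and jasmonate signals and by defence genes, auxin from the shoot collects above the cut, and cells near the vascular tissue then re-enter division and form adventitious roots, which are roots that arise from tissue other than a root. The files give locus identifiers without gene names, so functions of the members and marker genes of the tissue were not analysed here.

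The read totals, recovered from the steps between low values, came to 21914572 and 25026198 for the 0 h libraries. Those of the 16 later libraries ranged from 28460172 to 30651830. In the search for these totals, 66.5% and 63.25% of sampled low values gave whole transcript lengths at 0 h, against 85.5% to 92.75% later. These percentages were taken on the scale of read pairs, before the totals were refined and put on that of single reads. The 0 h totals are therefore less certain, and whether 0 h was sequenced less deeply was not tested. A member held between 111 and 156479 reads in a 6 h library, with a median of 1937. In the 2 libraries of its own lowest time it held a median of 57.5 reads, with quartiles of 15 and 195.5, so low levels carry a large counting error. Such read numbers cover counting error only.

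As a group, the loci were low in the first hour, higher at 2 h, highest at 6 h and lower again step by step after that. The samples are pieces of tissue, so a change in the number of cells of a type and a change of RNA per cell cannot be told apart. The median over members was 2.49 and 2.64 FPKM in the pair of 0.5 h libraries, 3.54 and 3.91 FPKM in the 1 h pair and 10.2 and 11.2 FPKM in the 2 h pair. It reached 54.8 and 45.2 FPKM in the 6 h libraries and was 26.4 and 21.5 FPKM in those of 12 h. Later it was 17.5 and 14.3 FPKM in the 24 h pair, 14.1 and 13.5 FPKM in the 48 h pair, and 9.96 and 9.58 FPKM in the last. The medians of the libraries of neighbouring time points did not overlap at any step after cutting, although the step from 24 h to 48 h was small.

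The 246 loci together took 0.417% and 0.397% of the summed FPKM of the table at 0.5 h and 1.25% and 1.36% at 2 h. Their share was 5.33% and 4.42% in the 6 h libraries, 2.43% and 2.11% in those of 12 h, and 0.806% and 0.794% in the last pair. The 10 highest members of a library held 35.5% of this sum in each 6 h library.

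**Figure D1:**
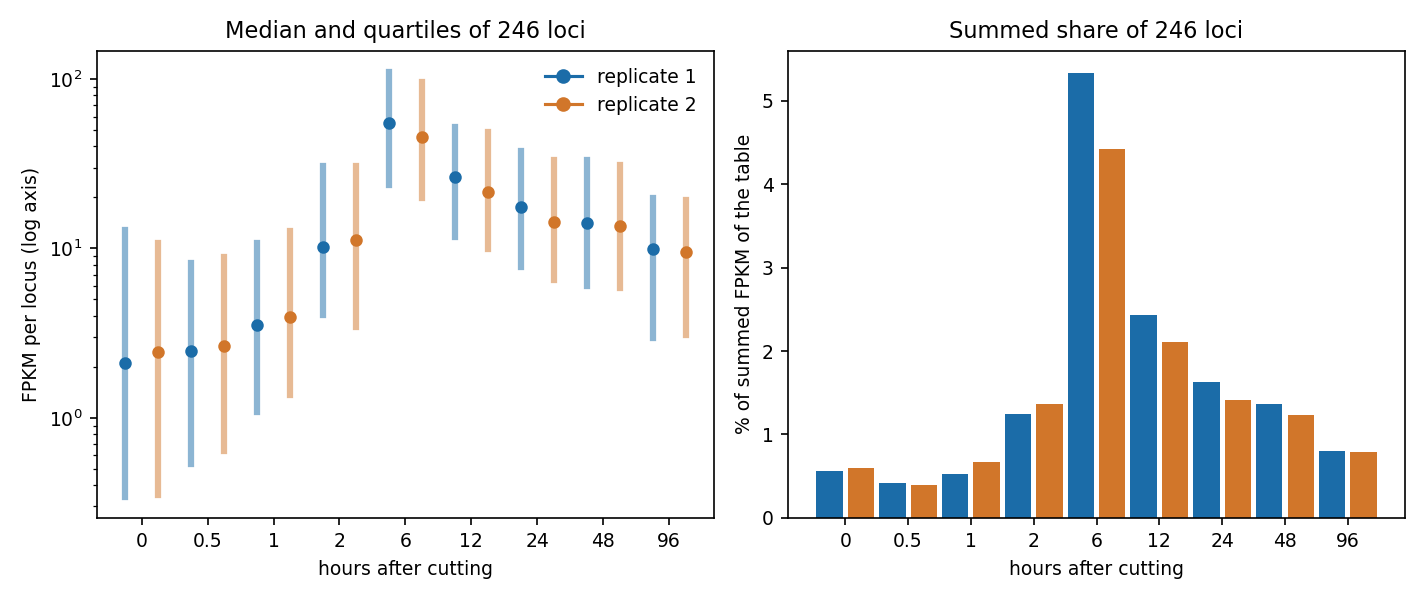
Left: FPKM per locus (log axis) of the 246 loci in each library against hours after cutting; points are medians, bars run from the lower to the upper quartile, and colours mark the 2 libraries of a time point. Right: the summed FPKM of the 246 loci as a percent of the whole table. The medians rise from 2.49 and 2.64 FPKM (0.5 h) to 54.8 and 45.2 FPKM (6 h), and the share reaches 5.33% and 4.42%.

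Members differed widely in level. At 6 h the mean level ran from 7.46 to 2660 FPKM, with a median of 50.1, and 63 members had at least 100 FPKM while 54 had under 20. In 101 members the lowest mean after cutting was under 1 FPKM. On the x scale the range had a median of 3.89. It was at least 4 in 115 members, at least 5 in 44, at least 6 in 9 and at least 7 in 3. The threshold separates loci that hardly differ: the 3 members just inside it had ranges of 3.002, 3.003 and 3.003, and the 3 loci just outside it 2.998, 2.995 and 2.990. The pseudocount decides how many loci of low level reach it. With log2(FPKM + 0.1) in place of log2(FPKM + 1) the same rule took 494 loci, all 246 among them.

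The lowest level lay early in most members. It was at 0.5 h in 132, at 1 h in 66 and at 2 h in 14, which makes 212 of 246. In another 30 it was at 96 h, in 3 at 48 h and in 1 at 24 h. The 132 loci lowest at 0.5 h started from a median of 1.15 FPKM, had 3.72 FPKM at 1 h and 10.9 FPKM at 2 h, and reached 51.1 FPKM. The 66 loci lowest at 1 h first went down and then up, with a first median of 6.36 FPKM, then 2.83 FPKM at their lowest, 7.53 FPKM at 2 h and 48.6 FPKM at the top. The 30 loci lowest at 96 h began at a median of 6.17 FPKM, had 46.2 FPKM at the top and ended at 0.956 FPKM, below where they began.

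The largest step of the rise was from 2 h to 6 h, with medians of x relative to 6 h of -3.15 (1 h) and -2.04 (2 h). That interval is longer than those before it and holds no sample, so the step says nothing of the rate per hour. In 191 members 6 h was the first time after cutting with a mean of 50% or more of the 6 h FPKM, in 44 it was 2 h, in 8 it was 1 h and in 3 it was 0.5 h. The descent was slower and less uniform. The mean first dropped below 50% of the 6 h FPKM at 12 h in 132 members, at 24 h in 52, at 48 h in 19 and at 96 h in 27, and it never did in 16. Those 16 held medians of 26.4 FPKM at 6 h and 17.2 FPKM at 96 h. In 77 members 6 h was the one time after cutting at 50% or more. The means went up at every step from 0.5 h to 6 h in 136 members and down at every step from 6 h to 96 h in 122, and 80 members did both.

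The decline did not bring most members back to the level of 0.5 h. The mean was at least 2-fold higher than at 0.5 h in 206 of 246 members at 24 h, in 193 at 48 h and in 168 at 96 h. In 43 members it was below the 0.5 h mean at 96 h. In 132 members the lowest mean after cutting was that of 0.5 h, which places their later means above it. The choice of members thus favours these counts, and nothing is read from them. Renewed increases of at least 2-fold were few late in the course: 8 members from 24 h to 48 h, and 10 from 48 h to 96 h. Smaller ones were more common, since the mean rose by any amount in 76 members from 24 h to 48 h and in 45 from 48 h to 96 h.

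The second highest time divides the members into 3 larger kinds. In 123 of them it was 12 h, and those had medians on the x scale, relative to 6 h, of -2.55 (2 h), -0.71 (12 h), -1.59 (24 h) and -2.49 (96 h). In 58 it was 2 h, and these were nearer to the 6 h level at 2 h and further below it later, with medians of -0.72 (2 h), -1.58 (12 h), -2.05 (24 h) and -3.13 (96 h). In 57 it was 24, 48 or 96 h, and these stayed nearer to their 6 h level, with medians of -0.92 (12 h), -0.70 (24 h), -0.57 (48 h) and -0.98 (96 h). The remaining 8 had their second highest mean at 0.5 h or 1 h. The kinds were made from the levels they describe, so their differences are no finding.

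**Figure D2:**
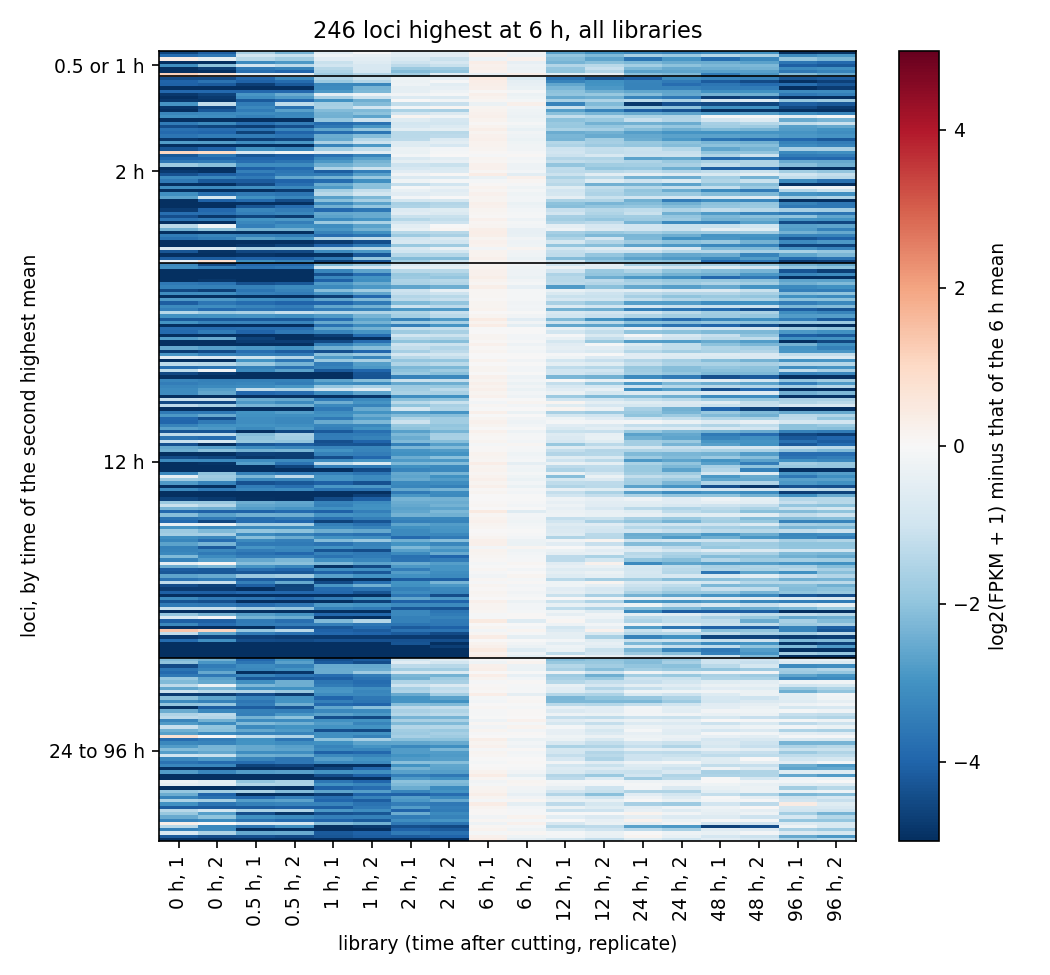
Each row is one of the 246 loci and each column a library, named by time after cutting and replicate; colour is log2(FPKM + 1) minus that of the 6 h mean of the locus, with values beyond 5 in the end colours. Rows are grouped by the time of the second highest mean (8 loci at 0.5 or 1 h, 58 at 2 h, 123 at 12 h, 57 at 24 to 96 h). The 58 loci of the 2 h group have a median of -0.72 at 2 h, and the 57 of the last group a median of -0.98 at 96 h, with single loci down to -4.56 at 48 h.

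How far 6 h stood above the other times varied. The x at 6 h exceeded that of the second highest time by a median of 0.64, by at least 1 in 71 members and by at least 2 in 7. The lead was under 0.25 in 50 members. The 3 smallest leads were 0.0017, 0.0023 and 0.0051, the first with 13.83 FPKM at 6 h and 13.81 FPKM at 12 h. In 192 members both 6 h libraries were above all 14 other libraries taken after cutting, against 7.64% of the 26765 loci with at least 1 FPKM in at least 2 libraries. The rule used these values, and nothing is read from that share. In the other 54 members a library of another time exceeded the lower 6 h library, most often one of 12 h, in 27 members.

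The 2 libraries of 6 h were not alike for these loci. Replicate 1 was higher than replicate 2 in 204 of 246 members (82.9%), while among all 26765 tested loci it was higher in 43.6%. The median difference, replicate 1 minus replicate 2 on the x scale, was 0.26 in the members and -0.03 in all tested loci. The 2 libraries were at least 1.5-fold apart in 41 members and at least 2-fold apart in 5. Other time points showed such differences too. Replicate 1 was higher in 201 members at 24 h (81.7%, against 45.5% of tested loci) and in 172 at 12 h (69.9%, against 49.7%). At 1 h replicate 2 was higher in 178 members, and replicate 1 in 67 (27.2%, against 55.4%). At 0.5 h and 96 h the members were divided nearly evenly, with 51.6% and 52.0%. This comparison was chosen after seeing the data, and a high value in either 6 h library favours membership. Members are not independent of each other, so the counts are a description, no test was made, and the cause of the differences was not tested. Without 6 h replicate 1 the rule took 218 loci, of which 203 were among the 246, and without 6 h replicate 2 it took 270, of which 231 were.

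**Figure D3:**
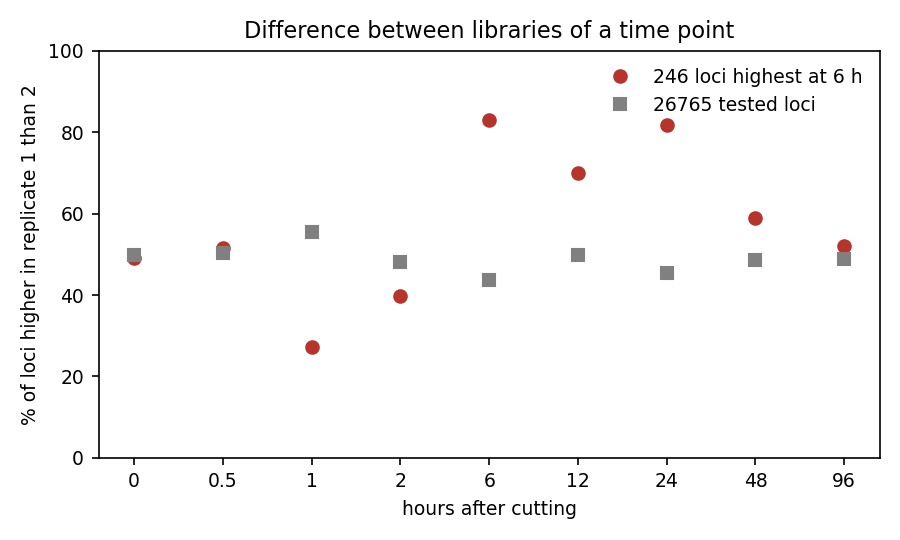
Percent of loci with a higher level in replicate 1 than in replicate 2, by hours after cutting, for the 246 loci highest at 6 h (circles) and all 26765 tested loci (squares). The squares lie between 43.6% and 55.4%, and the circles reach 82.9% at 6 h, 81.7% at 24 h and 27.2% at 1 h.

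4 members are shown library by library: the 2 with the largest rise of x from 2 h to 6 h and the 2 with the largest fall from 6 h to 12 h. Potri.009G140400, with 1 listed transcript, had the widest range of all members, 9.40 on the x scale. It started at 0.456 and 0.379 FPKM (0.5 h), followed by 1.00 and 0.839 FPKM (1 h) and 2.26 and 3.43 FPKM (2 h). At 6 h it had 1236 and 678 FPKM, from 39374 and 22452 reads where 2 h gave 72 and 110. Its libraries then gave 959 and 725 FPKM (12 h), 551 and 456 FPKM (24 h), 436 and 199.7 FPKM (48 h), and 27.0 and 15.7 FPKM (96 h). All 10 libraries from 6 h on were above the 6 before, and the 6 h and 12 h libraries overlapped. Without 6 h replicate 1, or without 12 h replicate 2, its highest mean was at 12 h.

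Potri.016G049400, with 1 listed transcript, stayed under 2 FPKM through 2 h. Its levels were 0.483 and 0.207 FPKM (0.5 h), 0.625 and 1.18 FPKM (1 h), and 0.235 and 0.845 FPKM (2 h). It had 176 and 126 FPKM at 6 h, followed by 62.7 and 75.5 FPKM (12 h), 41.2 and 33.4 FPKM (24 h), 13.2 and 19.0 FPKM (48 h), and 44.3 and 39.3 FPKM (96 h). Both 6 h libraries were above all others, and both 96 h libraries were above those of 48 h. It kept its place with any single library left out.

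Potri.007G049400, with 1 listed transcript, had the largest fall after 6 h, 3.96 on the x scale by 12 h. It had 0.420 and 1.31 FPKM (0.5 h), 6.34 and 8.91 FPKM (1 h), and 16.7 and 14.6 FPKM (2 h). The 6 h libraries were far apart, at 29.5 and 11.7 FPKM. It was at 0.670 and 0.111 FPKM at 12 h and between 0.104 and 1.41 FPKM in the 6 libraries after that. 6 h replicate 2 was below both 2 h libraries, and without 6 h replicate 1 the highest mean was at 2 h. At 12 h the values rest on 12 and 2 reads.

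Potri.015G104400, with 2 listed transcripts, followed the same kind of course. It had 1.16 and 1.43 FPKM (0.5 h), 8.69 and 11.8 FPKM (1 h), 28.1 and 33.2 FPKM (2 h), and 43.5 and 25.2 FPKM (6 h). It came down to 2.58 and 3.36 FPKM (12 h), 2.58 and 2.05 FPKM (24 h), 0.978 and 0.575 FPKM (48 h), and 0.158 and 0.374 FPKM (96 h). The 2 h and 6 h libraries overlapped, all libraries from 12 h on were below those of 1 h, and without 6 h replicate 1 the highest mean was at 2 h.

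**Figure D4:**
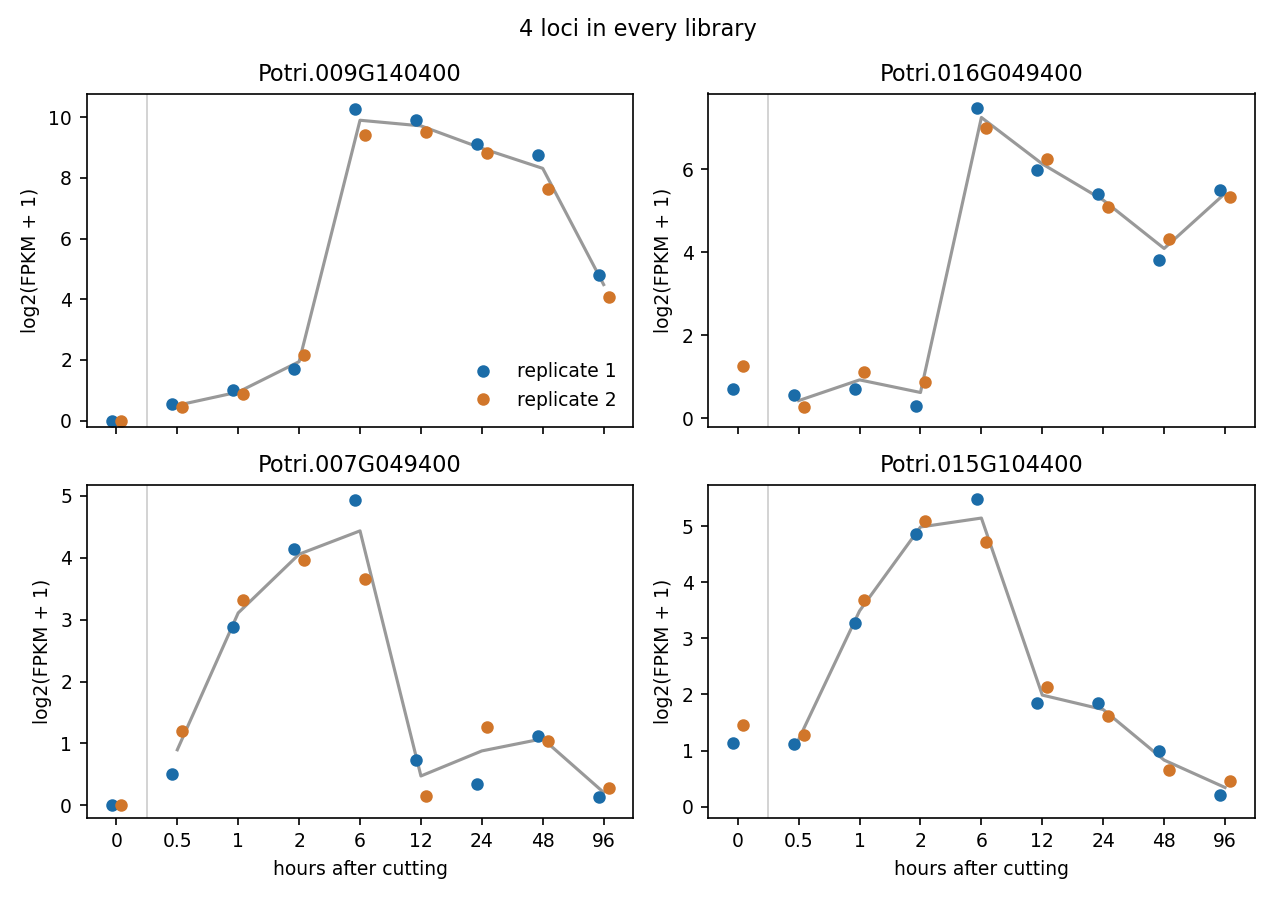
The level of 4 loci, as log2(FPKM + 1), in every library against hours after cutting; points are libraries, coloured by replicate, and the line joins the time point means after cutting, leaving out 0 h. The top pair jumps between 2 h and 6 h, and the bottom pair drops between 6 h and 12 h, with 6 h replicates at 29.5 and 11.7 FPKM for Potri.007G049400.

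The 0 h libraries, which the rule did not use, show where the loci stood in the stem base at the time of cutting. The median member had 2.11 and 2.43 FPKM at 0 h. The mean was under 1 FPKM in 92 members and at least 20 FPKM in 43. It lay within the range of the later means in 151 members, below the lowest of them in 89 and above the 6 h mean in 6. Those 6 had medians of 39.9 FPKM at 0 h, 3.58 at 1 h and 32.2 at 6 h. In 18 members both 0 h libraries were listed at 0 (7.32%, against 6.68% of tested loci). The 0 h tables differ in kind from the later ones. In the 0 h libraries the top transcript of a member with several made up a median of 93.6% and 94.5% of the locus. In the 16 later libraries it was 42.8% to 48.2%. Of values at 0 h, 38.7% and 37.9% were whole reads within 0.01 reads, against 100% later. The transcript lengths were searched to make every later value whole, so that 100% was fixed by the search, which left 0 h out. Every comparison with 0 h carries the difference in kind between the tables, whose part in it was not tested.

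At 6 h 237 of 246 members were called higher than at 0 h and 3 lower, by limma at a Benjamini-Hochberg adjusted p below 0.05, while 36.8% of all tested loci were called higher and 27.8% lower. The choice of members at their 6 h maximum favours this outcome, so nothing is read from it. The median log2 fold change was 3.52 in the members and 0.09 in all tested loci.

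At 96 h the members stood on both sides of 0 h. Of 246, 162 were called higher and 34 lower, against 42.4% and 22.5% of all tested loci (limma, Benjamini-Hochberg adjusted p below 0.05). The fold change was above 0 in 196 members. The log2 fold change had a median of 1.03 and quartiles of 0.20 and 2.13 in the members, and a median of 0.23 in all tested loci. The members' standard error had a median of 0.20. With quantile normalization, which moved the median of all tested loci to -0.02, the members' median was 0.80. In that setting 150 members were called higher and 43 lower, where 8435 and 8872 of all 26765 tested loci were. Every member passed the filter on low values, through 6 h itself, and the 96 h levels entered the rule, so these counts are a description of where the loci ended. In the 145 members with 1 listed transcript, no reads had to be divided among listed transcripts of the same locus, though reads may match other loci. Of these members 100 were called higher and 11 lower in a fit of such loci alone. In that fit 6613 and 2859 of all 14378 tested loci were.

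The kinds of course are given separately for 96 h against 0 h. Of the 57 members with their second highest mean at 24 to 96 h, 44 were called higher at 96 h than at 0 h and 3 lower. Of the 123 with 12 h second it was 83 and 17, of the 58 with 2 h second 31 and 10, and of the 8 with 0.5 or 1 h second 4 and 4. The 96 h level helped to define these kinds, so this order is no finding.

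Of the 4 loci shown, Potri.009G140400 was listed at 0 in both 0 h libraries and had 27.0 and 15.7 FPKM at 96 h, so it is given no fold. Potri.016G049400 had 0.629 and 1.38 FPKM at 0 h, and its log2 fold change from 0 h to 96 h was 4.44 (SE 0.25). Potri.007G049400 was listed at 0 at 0 h and had 0.104 and 0.210 FPKM at 96 h. Potri.015G104400 had 1.19 and 1.73 FPKM at 0 h, and its log2 fold change from 0 h to 96 h was -0.95 (SE 0.23). Its 96 h level was its lowest and set its range, and the 96 h levels of all 4 entered the rule, so these values are given without a test.

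**Figure D5:**
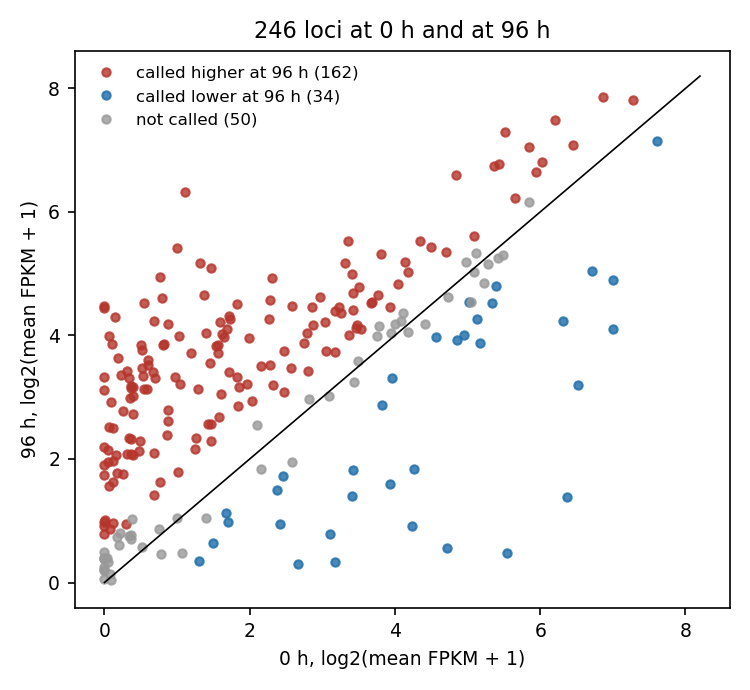
Mean level at 0 h (horizontal) and at 96 h (vertical), both as log2(mean FPKM + 1), of the 246 loci; the line marks equal levels and colours the limma calls at an adjusted p below 0.05. Of the points, 162 are called higher at 96 h, 34 lower and 50 not called.

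The division of a locus among its transcripts was compared between 6 h and the other times, since the sum over transcripts does not use it. Of 246 members, 145 had 1 listed transcript (58.9%, against 53.7% of tested loci) and 101 had several, up to 16. The ratio tested was log2 of the leading transcript over the sum of the others, each with 0.1 FPKM added, at 6 h minus the mean of the 7 other times after cutting. The leading transcript was the one with the highest mean FPKM over the 16 libraries after cutting. The ratio was tested in 9565 loci with a mean of at least 5 FPKM and at least 1 FPKM outside the leading transcript, 96 of them members. These means include 6 h, so a member could pass the filter, and get its leading transcript, through 6 h itself. The counts for members are therefore a description. None of the 96 members passed limma's Benjamini-Hochberg adjusted p of 0.05, where the lowest was 0.283, and 0.0941% of the loci tested did. At an unadjusted p below 0.05 there were 3 members (3.13%) and 581 loci in all (6.07%). With 1 FPKM added in place of 0.1, 3 of the 96 members were called, and 60 of the 9565 loci in all. The change of the ratio had a median of 0.02 in the members, with quartiles of -0.06 and 0.07, and of 0.01 in all loci tested. No source used here gives how the authors divided reads that match several transcripts.

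In recovered length the leading transcripts of the members had a median of 1434 bp, with quartiles of 1110 and 1799, and those of the 26677 tested loci with a length a median of 1593 bp, with quartiles of 1069 and 2231. Members were spread over all 17 identifier prefixes that the tables hold, from 0.294% of the loci of prefix 11 to 1.14% of those of prefix 4. Of the members, 21 stood directly next to another member in identifier order, in 10 runs of at most 3 loci (8.54% of members). Among the 285 loci highest at 2 h with the same minimum range it was 24 (8.42%), and among the 95 highest at 12 h it was 11 (11.6%). Of the 355 tested loci that stood next to a member without being one, 92 were highest at 6 h (25.9%), against 14.1% of all tested loci. Neighbouring loci can be copies of one gene whose reads are hard to tell apart. Sequences were not used here, and the part of shared reads in these counts was not tested.

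The members were set beside the loci highest at 2 h and at 12 h with the same minimum range. The median at the highest time was 53.8 FPKM in the 285 loci of 2 h, 50.1 FPKM in the 246 of 6 h and 53.8 FPKM in the 95 of 12 h. The median at 0 h was 1.99, 2.21 and 8.55 FPKM in the same order, and 33 (11.6%), 18 (7.32%) and 10 (10.5%) were listed at 0 in both 0 h libraries. The lead of the highest over the second highest time had medians of 0.68, 0.64 and 0.27 on the x scale. These differences between sets were not tested.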

How the data were processed

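RNA of 18 libraries, 2 at each of 9 time points, was analysed from 1 table per library with 65535 transcripts and their FPKM, which the authors deposited. FPKM is the unit per the file headers of the 0 h tables; the 16 others are headed by sample title. The tables end within identifier prefix 17, and later loci were not analysed here. Bowtie2 2.2.3 and HISAT2 2.1.0 are named per the submitters' processing notes, without a role. No source used here gives the genome build, annotation or counting tool. The FPKM of all transcripts of a locus were summed. Read totals, stated for single reads, were searched that give whole transcript lengths for low values, followed by transcript lengths that make every later value a whole read number. Such a length was found for 60197 of 60197 transcripts with a value above 0 in 6 or more later libraries.

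Comparisons with 0 h used limma 3.58.1 in R 4.3.3 on log2(FPKM + 1) over 26765 loci with at least 1 FPKM in at least 2 libraries, with 1 mean per time point over all 18 libraries, an intensity trend and robust variances. The transcript ratio used the 16 later libraries. p-values were two-sided and adjusted by Benjamini-Hochberg over all tested loci. The procedure was also run on simulated data, with independent noise around means that were fixed apart from changes put in at 6 h. Those data lack the differences between replicates described above and the different kind of the 0 h tables, so nothing is read from them. The members, lists and tests were chosen with earlier results of these data known. Without gene names, the 2 members with the largest rise of x from 2 h to 6 h and the 2 with the largest fall from 6 h to 12 h were named. The gene lists and markers, written as words of gene names, could not be applied. Alternatives tried were other pseudocounts, quantile normalization, no filter, loci with 1 transcript, the leading transcript alone, other ranges, fewer libraries and a replicate block. Fold changes on this scale understate those of low loci.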

Additional observations from a re-analysis of the deposited data

How the results depend on the processing

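The number of loci that meet the rule, 246, was 494 with a pseudocount of 0.1, 666 with a range of at least 2, 115 with a range of at least 4 and 145 among loci with 1 listed transcript. It was 233 with quantile normalization (223 of them among the 246), 216 with the leading transcript alone, 235 with at least 10 FPKM at 6 h and 339 with 0 h among the times (240 shared). Leaving out 1 library gave between 218 and 270. The 192 of 246 members with both 6 h libraries above all others became 335 of 494 with a pseudocount of 0.1. Among loci with 1 listed transcript they became 107 of 145, fewer by construction. Leaving out 1 library gave between 188 of 244 and 251 of 270. The share of all tested loci was 7.64% in the main setting and was not computed for the others. The rule used these values, and nothing is read from these counts. Among loci with 1 listed transcript, the 240 members called at 6 h against 0 h became 142. The 196 called at 96 h became 111, and both are again fewer by construction. Of all 14378 loci tested in that setting 9112 and 9472 were called, and of all 26765 in the main one 17295 and 17393. All other settings tried moved the 4 counts by less than 1.5 times. Members called for the transcript ratio numbered 3 with 1 FPKM added, where 60 of all 9565 loci tested were called. They numbered 0 in the 6 other settings.

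The replicate block gave 239 members called at 6 h against 0 h and 196 at 96 h. Of all 26765 loci tested, 17139 and 17278 were called in that setting. Nothing in the labels links same-numbered libraries across times. Over 36 pairs of time points the differences between the 2 libraries correlated between -0.20 and 0.21 over loci, with 3 pairs above 0.1, so the libraries were not treated as paired. Over members and libraries of the lowest time the lower quartile was 15 reads; the effect of depth on the range was not tested. For the 4 loci shown, the range moved by more than the spread between replicates with a pseudocount of 0.1, and with no other setting tried.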
